A study of Mus musculus with 5 samples.

Results

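The 10 genes described here carry calcium through the contraction cycle of heart muscle cells: the channel subunits Cacna1c and Cacnb2, the release unit Ryr2, Casq2, Trdn and Jph2, the removal proteins Atp2a2, Pln and Slc8a1, and the kinase Camk2d. They were taken by symbol from a table of 17818 gene symbols. All 10 were found, and all 10 passed the filter on low values, at least 1 CPM (counts scaled to the library total) in at least 2 libraries, which left 12734 genes for testing.

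Hearts of male mice were sampled 12 months after bone marrow transplantation and profiled by messenger RNA sequencing in 5 libraries. The series concerns clonal hematopoiesis, in which mutant blood cells outgrow the others, and whether oridonin, a plant diterpenoid, alters its effect on the ageing heart. The groups were 1 wild-type (WT) library given vector, 2 Tet2+/- libraries given vector and 2 Tet2+/- libraries given oridonin, and all 3 groups had been transplanted. The labels state 2 months of treatment for every sample, whereas the sample titles read 1 month or 2 month, and the title's number was taken as no more than the replicate's name. They do not say whether the genotype applies to the donor marrow, the heart or both, nor whether libraries came from separate animals, so the p-values measure the spread between these libraries, which may be technical. No untransplanted heart and no WT heart given oridonin was analysed.

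Each heartbeat starts with calcium entry through L-type channels in the surface membrane. That calcium opens ryanodine receptors on the sarcoplasmic reticulum, the internal store, and the released calcium activates the myofilaments. Relaxation follows when the pump SERCA2 returns calcium to the store and the sodium-calcium exchanger moves it out of the cell.

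Library totals lay between 14574823 and 15535778 counts, and the 10 genes held between 731 and 273406 counts in each library. Genes of the mitochondrial genome took 23.6% to 30.2% of counts. Summed CPM of 12 markers of cardiomyocytes was 57054 in the WT library, 54365 and 54077 in those of Tet2+/- given vector, then 58732 and 62293 with oridonin, and 0 of the 12 markers were at 0 counts, which fits the tissue label. In whole heart, fewer cardiomyocytes and less RNA per cardiomyocyte cannot be told apart. Libraries also differed by transcript length: of 308 genes with a transcript over 10 kb, the median deviation from each gene's mean over the 5 libraries was 0.32 log2 units for WT, 0.35 for vector 1, -0.48 for vector 2, -0.32 for oridonin 1 and 0.18 for oridonin 2. Tet2+/- vector 1 stood apart in atrial markers, whose summed CPM was 1088 there and between 17.8 and 91.9 in the other 4 libraries.

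Per kilobase of the longest coding transcript, Atp2a2 was the most abundant of the 10 transcripts, with a median over 5 libraries of 3105 CPM per kb. Pln followed with 815, Casq2 with 380, Jph2 with 142 and Ryr2 with 83.4 CPM per kb. Trdn had 49.3, Camk2d 25.4, Cacna1c 16.7, Cacnb2 15.7 and Slc8a1 7.37 CPM per kb. The ranges over libraries did not overlap between Atp2a2 and Pln, Pln and Casq2, Casq2 and Jph2, or Cacnb2 and Slc8a1. They overlapped for all other neighbours in this order, and Cacna1c lay above Cacnb2 in 3 of 5 libraries. Per kilobase of all annotated exons of a gene the lower end of the order changed, with 10.4 CPM per kb for Cacna1c, 7.24 for Slc8a1, 6.23 for Camk2d and 4.67 for Cacnb2. Together the 10 genes made up 2.44% of the WT counts. Their share was 2.00% in vector 1, 1.504% in vector 2, 1.76% in oridonin 1 and 1.99% in oridonin 2, and Atp2a2 alone supplied 68.6% to 74.7% of those counts.

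Promoter sequence is shown for 4 members with contrasting patterns over the libraries: Ryr2 and Slc8a1, which were lowest in Tet2+/- vector 2, and Pln and Casq2, which were lowest in WT. Each run is the 250 bases before a RefSeq transcription start, 5′ to 3′ on the gene's strand, GRCm38.p6. The windows are chr13:12106946-12107195 (minus strand) for Ryr2, chr17:81738388-81738637 (minus) for Slc8a1, chr10:53337436-53337685 (plus) for Pln and chr3:102086165-102086414 (plus) for Casq2. Capitals mark matches, on either strand, to 4 patterns that do not overlap one another in these runs. A site resembling that of the muscle factor MEF2 was searched as TAAAAATA. Sites of the GATA factors were searched as AGATAA, and the core promoter element as TATAAA. The remaining pattern was CCAAT.
Ryr2: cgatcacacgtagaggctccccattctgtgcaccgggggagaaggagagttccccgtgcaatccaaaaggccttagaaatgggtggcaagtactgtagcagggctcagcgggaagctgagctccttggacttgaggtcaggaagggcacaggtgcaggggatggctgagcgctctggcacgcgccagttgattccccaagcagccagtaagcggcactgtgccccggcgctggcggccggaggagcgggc
Slc8a1: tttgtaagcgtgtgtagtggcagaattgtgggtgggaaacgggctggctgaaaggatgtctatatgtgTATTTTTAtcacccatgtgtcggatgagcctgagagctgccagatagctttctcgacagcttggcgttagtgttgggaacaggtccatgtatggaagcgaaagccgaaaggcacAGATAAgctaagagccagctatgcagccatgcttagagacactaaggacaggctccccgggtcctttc
Pln: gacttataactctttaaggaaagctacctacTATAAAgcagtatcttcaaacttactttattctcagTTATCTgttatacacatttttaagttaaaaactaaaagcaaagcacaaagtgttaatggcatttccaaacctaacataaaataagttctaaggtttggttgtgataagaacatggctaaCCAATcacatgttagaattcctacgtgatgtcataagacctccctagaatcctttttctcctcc
Casq2: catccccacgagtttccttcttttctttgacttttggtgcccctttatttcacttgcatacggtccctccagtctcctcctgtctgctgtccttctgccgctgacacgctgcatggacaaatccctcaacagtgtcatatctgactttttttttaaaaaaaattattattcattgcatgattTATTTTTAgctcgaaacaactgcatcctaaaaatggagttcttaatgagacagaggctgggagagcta
RefSeq windows were found for 8 of the 10 genes, 12 windows in all, some of which overlap because they belong to neighbouring starts of 1 gene. The MEF2-like letters were present in 2 of these 12, Casq2 at 68 and Slc8a1 at 182 bases before the start, and in 2.45% of all 32851 windows of the same length. GATA letters were present in 2 of 12, Pln at 183 and Slc8a1 at 68 bases before the start, against 9.99% of all windows. CCAAT was found in 4 of 12 windows against 33.85%, and TATAAA in the Pln window alone, at 219 bases before the start, against 12.4%. The CArG box, searched by name, was in 0 of 12 windows and in 1.47% of all, and the E-box CANNTG was in 11 of 12 and in 66.2% of all. No match was marked in the Ryr2 window, whose GC content of 63.2% lay above the median of 52.4% for all windows, while that of Pln was 32.8%. A match describes letters and is no evidence of binding.

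In the L-type channel, the pore-forming subunit Cacna1c was higher in WT than in every Tet2+/- library. Cacna1c (chr6:118587240-119196418, minus strand, GRCm38) stood at 430 CPM in WT, 220 and 159 in vector, and 214 and 228 in oridonin. The vector mean was 189 ± 42.7 CPM (SD, n = 2) and the oridonin mean 221 ± 9.71 (SD, n = 2). Its level in Tet2+/- vector was 2.30-fold lower than in WT, a log2 difference of -1.20 (SE 0.25, 95% interval -1.80 to -0.60), with an adjusted p of 0.324 by limma, and in oridonin the difference from WT was -0.96 (SE 0.25, adjusted p = 0.657, limma). Without vector 1 or vector 2 the difference of vector from WT was -1.43 or -0.97. With the length trend of each library removed, the differences from WT were -0.79 in vector and -0.56 in oridonin. Oridonin and vector groups overlapped, with a log2 difference of 0.24 (95% interval -0.25 to 0.74), which was 0.011 without vector 2 and 0.48 without vector 1.

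Cacnb2 (chr2:14603088-14987908, plus strand), the auxiliary beta subunit that helps bring the channel to the membrane, was measured at 89.3 CPM in WT, 72.3 and 49.1 in vector, and 61.8 and 61.5 in oridonin. WT was again above all 4 Tet2+/- libraries, by a log2 difference of -0.58 in vector (SE 0.28, adjusted p = 0.558, limma), which was -0.30 without vector 2 and -0.86 without vector 1. The oridonin libraries lay between the vector libraries, and the difference of oridonin from vector was 0.05 (95% interval -0.51 to 0.61). The log2 ratio of Cacnb2 to Cacna1c CPM was -2.27 in WT, -1.60 and -1.70 in vector and -1.80 and -1.89 in oridonin. Both oridonin ratios were below both vector ratios, by 0.20 on the log2 scale in the mean, and the exact two-sided permutation p was 0.333, the smallest that 2 against 2 allows. This ratio was not adjusted for transcript length. With the length trend removed, log2 CPM of Cacnb2 was 6.41 in WT, 6.047 and 5.74 in vector, and 6.041 and 5.902 in oridonin. That of Cacna1c was 8.419, then 7.422 and 7.83, then 8.085 and 7.631. On these values the ratios of vector and oridonin overlapped, and vector 2 lay below WT.

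Ryr2, the release channel of the store, had the widest range among the 10 and was highest in WT, with a wide gap between the vector replicates. Ryr2 (chr13:11553102-12106945, minus strand) was at 2372 CPM in WT, 1403 and 574 in vector, and 1043 and 1435 in oridonin. The vector mean was 989 ± 586 CPM (SD, n = 2), with replicate 1 2.44-fold above replicate 2, and the oridonin mean was 1239 ± 278 (SD, n = 2). WT was above all 4 other libraries, while the oridonin values overlapped those of vector. The log2 difference of vector from WT was -1.40 (SE 0.51, 95% interval -2.64 to -0.16, adjusted p = 0.499, limma). It was -0.76 without vector 2, -2.05 without vector 1 and -0.93 with the length trend removed. Oridonin differed from vector by 0.45 (SE 0.42, 95% interval -0.57 to 1.46), and by -0.20 without vector 2. With the length trend removed the difference was 0.43 (SE 0.15, adjusted p = 1.00, limma), and both oridonin values then lay above both vector values.

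Casq2, which buffers calcium inside the store, did the opposite of Ryr2 between WT and Tet2+/-. Casq2 (chr3:102086415-102146514, plus strand) had 709 CPM in WT, 971 and 967 in vector, and 1026 and 1198 in oridonin. The vector replicates were close, at 969 ± 3.07 CPM (SD, n = 2), and both oridonin libraries, at 1112 ± 122 (SD, n = 2), lay above them. The log2 difference of oridonin from WT was 0.65 (SE 0.19, 95% interval 0.19 to 1.1, adjusted p = 0.689, limma), that of vector from WT 0.45 (SE 0.19, adjusted p = 0.520, limma), and that of oridonin from vector 0.19 (95% interval -0.17 to 0.56). The last was 0.082 without oridonin 2 and 0.31 without oridonin 1. With Ryr2 highest and Casq2 lowest in WT, the CPM ratio of Casq2 to Ryr2 was 0.299 in WT, 0.693 and 1.68 in vector, and 0.984 and 0.835 in oridonin. The oridonin ratios lay between the vector ratios (exact two-sided permutation p = 1), and the mean log2 ratio differed from WT by 1.85 in vector and 1.60 in oridonin. This ratio and the other partner ratios were not adjusted for transcript length, which was 2.56 kb for Casq2 and 16.8 kb for Ryr2.

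Trdn encodes triadin, which links calsequestrin to the release channel. Trdn (chr10:33080554-33476709, plus strand) was at 123 CPM in WT, 294 and 222 in vector, and 108 and 254 in oridonin. Both vector libraries were above WT, but oridonin 1 was below WT and oridonin 2 fell between the vector libraries. The log2 difference of vector from WT was 1.05 (SE 0.49, 95% interval -0.15 to 2.26, adjusted p = 0.55, limma), and that of oridonin from vector -0.63 (SE 0.40, 95% interval -1.62 to 0.35), which was -0.012 without oridonin 1 and -1.25 without oridonin 2. Set against Ryr2, Trdn had a log2 ratio of -4.27 in WT, -2.25 and -1.37 in vector and -3.28 and -2.5 in oridonin. The oridonin ratios were both below the vector ratios, by 1.08 in the mean, again with the smallest possible exact permutation p of 0.333. That difference was -0.64 without vector 2, -0.69 without oridonin 1, -1.46 without oridonin 2 and -1.52 without vector 1.

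Jph2, which holds the store close to the surface membrane, varied little. Jph2 (chr2:163336242-163397993, minus strand) had 632 CPM in WT, 529 and 588 in vector, and 627 and 600 in oridonin. WT was highest and both oridonin libraries lay above both vector libraries, but by a log2 difference of 0.14 (SE 0.15, 95% interval -0.22 to 0.50), which was 0.062 without vector 1 and 0.21 without vector 2. The difference of vector from WT was -0.18 (SE 0.18, adjusted p = 0.776, limma). The log2 ratio of Jph2 to Ryr2 was -1.91 in WT, -1.41 and 0.03 in vector, and -0.73 and -1.26 in oridonin, with both extremes of the Tet2+/- libraries in the vector group. The difference of oridonin from vector for Jph2 itself changed sign to -0.021 when libraries were centred on the cardiomyocyte markers, a scaling that moved the median of all genes in that comparison from -0.05 to -0.21.

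Among the genes of calcium removal, Atp2a2, which encodes SERCA2, was higher in WT than in any Tet2+/- library. Atp2a2 (chr5:122453513-122502225, minus strand) was at 18217 CPM in WT, 14279 and 10316 in vector, and 12667 and 13931 in oridonin. Vector was 1.501-fold lower than WT, a log2 difference of -0.59 (SE 0.23, 95% interval -1.14 to -0.03, adjusted p = 0.511, limma), which was -0.35 without vector 2 and -0.82 without vector 1. Both oridonin libraries fell within the vector range, with a difference of 0.13 (95% interval -0.33 to 0.59), and of -0.10 without vector 2.

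Pln, which encodes phospholamban, the inhibitor of SERCA2, was lowest in WT. Pln (chr10:53337667-53345987, plus strand) had 1538 CPM in WT, 1907 and 1976 in vector, and 1641 and 1902 in oridonin. Both oridonin libraries were below both vector libraries, though oridonin 2 lay next to vector 1, and the log2 difference was -0.14 (SE 0.15, 95% interval -0.49 to 0.22), which was -0.029 without oridonin 1 and -0.24 without oridonin 2. The difference of vector from WT was 0.34 (SE 0.18, adjusted p = 0.6, limma). Pln exons share 141 bases with Cep85l and 1644 bases with Gm47644 on the other strand, and without stated strand the reads of such overlaps cannot be told apart. Cep85l had only 11.04 to 27.7 CPM, and Gm47644 was not analysed here.

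The ratio of inhibitor to pump set WT apart from the other libraries. The CPM ratio of Pln to Atp2a2 was 0.0844 in WT, 0.134 and 0.192 in vector, and 0.130 and 0.137 in oridonin. On the log2 scale the mean ratio differed from WT by 0.92 in vector and 0.66 in oridonin, which was not tested. The oridonin ratios overlapped those of vector, with a difference of -0.27 (exact two-sided permutation p = 0.667) that was -0.0058 without vector 2. Over the 6 partner ratios compared between oridonin and vector, every Benjamini-Hochberg adjusted p was 1.

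**Figure D1:**
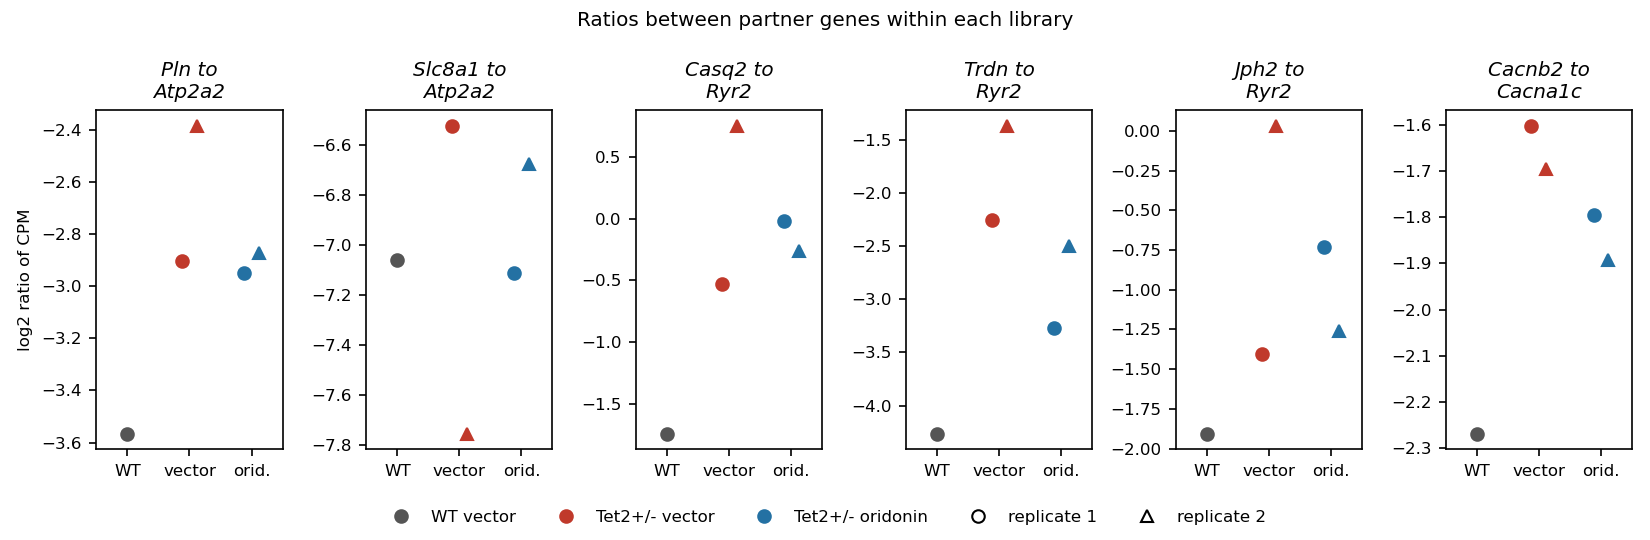
Log2 ratio of CPM between 6 pairs of partner genes in each library (vertical axis, own scale per panel), with 1 WT library and 2 replicates each of Tet2+/- vector and oridonin as points. WT is lowest in every panel except Slc8a1 to Atp2a2, and the vector replicates lie far apart in the panels that involve Ryr2 or Slc8a1. The ratios are not adjusted for transcript length.

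Slc8a1, the sodium-calcium exchanger, showed no separation of groups. Slc8a1 (chr17:81373105-81738377, minus strand) was at 136 CPM in WT, 155 and 47.7 in vector, and 91.4 and 136 in oridonin. Vector replicate 1 was 3.25-fold above replicate 2, and the oridonin libraries lay between them. The log2 difference of vector from WT was -0.67 (SE 0.66, adjusted p = 0.776, limma) and turned to 0.19 without vector 2, and that of oridonin from vector was 0.37 (95% interval -0.94 to 1.69) and turned to -0.48 without vector 2.

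Camk2d, the main cardiac isoform of calcium/calmodulin-dependent kinase II, which phosphorylates the release channel and phospholamban, was at 126 CPM in WT, 173 and 140 in vector, and 132 and 165 in oridonin (chr3:126596302-126846326, plus strand). WT was lowest, the Tet2+/- groups overlapped, and the log2 difference of vector from WT was 0.31 (SE 0.25, adjusted p = 0.714, limma), which was 0.16 without vector 1 and 0.46 without vector 2. The difference of oridonin from vector was -0.08 (95% interval -0.57 to 0.41), and it was 0.075 without vector 1 and 0.082 without oridonin 1.

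**Figure D2:**
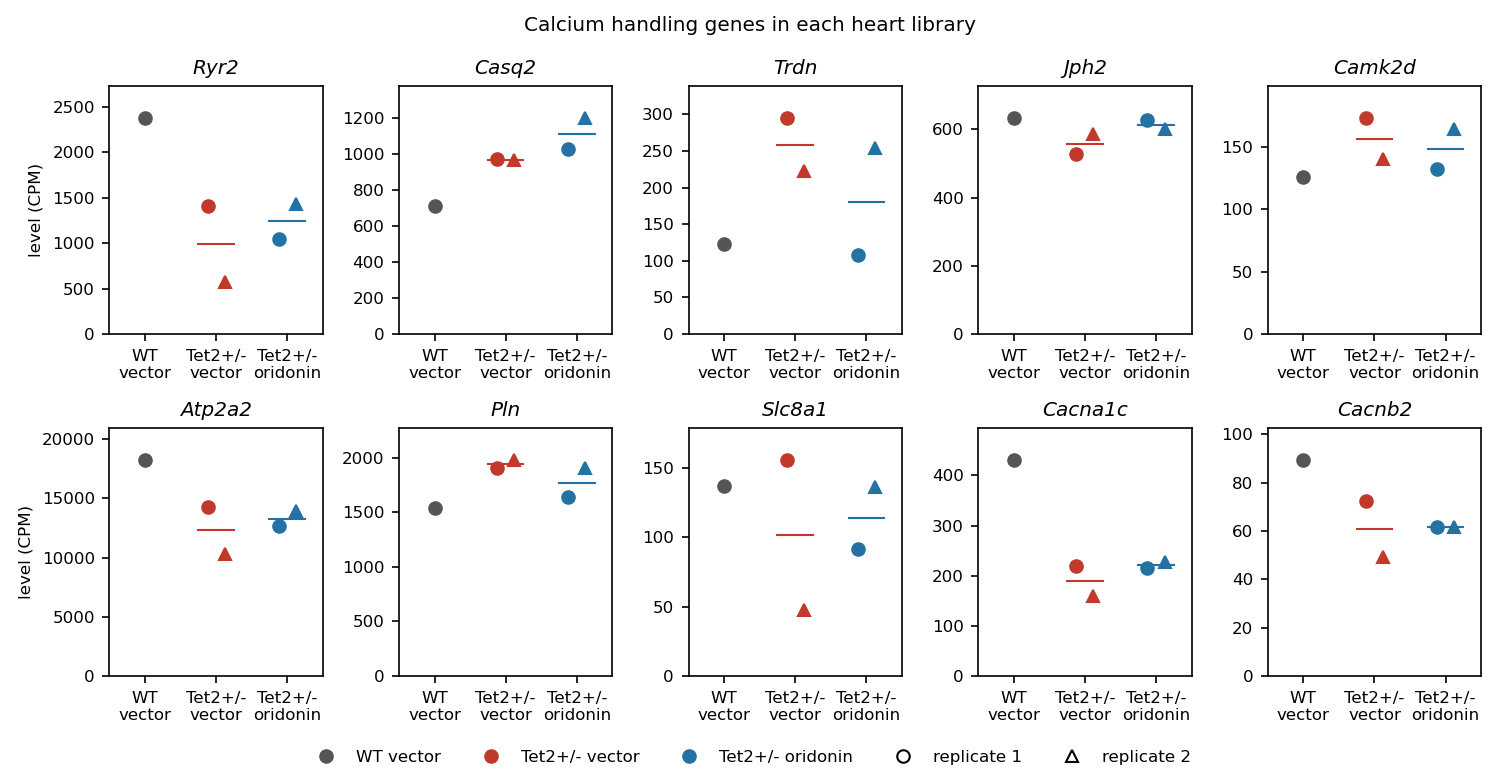
CPM of each of the 10 genes in each library (vertical axis, own linear scale per panel), with circles for replicate 1 and triangles for replicate 2. WT is the highest point for Ryr2, Atp2a2, Cacna1c, Cacnb2 and Jph2 and the lowest for Pln, Casq2 and Camk2d.

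Across the 10 genes, 5 were lower in all 4 Tet2+/- libraries than in WT, namely Ryr2, Atp2a2, Cacna1c, Cacnb2 and Jph2, a pattern that 27.2% of all tested genes showed. Pln, Casq2 and Camk2d, 3 of 10, were higher in all 4, against 24.2% of tested genes. Slc8a1 and Trdn were mixed. Within groups, vector 1 was above vector 2 in 8 of the 10 genes and oridonin 2 above oridonin 1 in 8. Between the Tet2+/- groups, Casq2 and Jph2 were higher in both oridonin libraries than in both vector libraries, 2 of 10 against 8.37% of tested genes, and Pln, 1 of 10, was lower in both, against 17.8%. The other 7 genes overlapped between vector and oridonin.

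No gene of the 10 passed an adjusted p of 0.05 in any comparison by limma, and 0.0% of all tested genes did so in each, as with voom weights on the recovered counts. At an unadjusted p under 0.05 there were 3 members in vector against WT, Cacna1c, Ryr2 and Atp2a2, all lower, where 9.59% of tested genes passed. In oridonin against WT there were 2, Cacna1c lower and Casq2 higher, against 6.21%, and in oridonin against vector 0, against 2.6%. With the length trend removed, 3 members passed in oridonin against WT, where 1260 of the 12734 tested genes passed. Casq2 and Camk2d were higher and Ryr2 lower. Their unadjusted p by limma was 0.0049 for Casq2, 0.036 for Camk2d and 0.031 for Ryr2, and it was 0.064 for Cacna1c. The median log2 difference of the 10 was -0.38 in vector against WT, 0.13 for oridonin relative to vector, and -0.17 for oridonin relative to WT, beside 0.00, -0.05 and -0.06 for all tested genes. Each of the 3 comparisons shares libraries with both others. Without vector 2 they were -0.036, -0.15 and -0.17. The authors' deposited values blend each Tet2+/- replicate with the other, which draws replicates together. Fitted as deposited, they put 6 members past the threshold in vector against WT (Ryr2, Atp2a2, Casq2, Cacna1c, Cacnb2 and Trdn), where 18.2% of tested genes passed, and 2 in oridonin against WT (Casq2 and Cacna1c), where 7.82% passed.

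**Figure D3:**
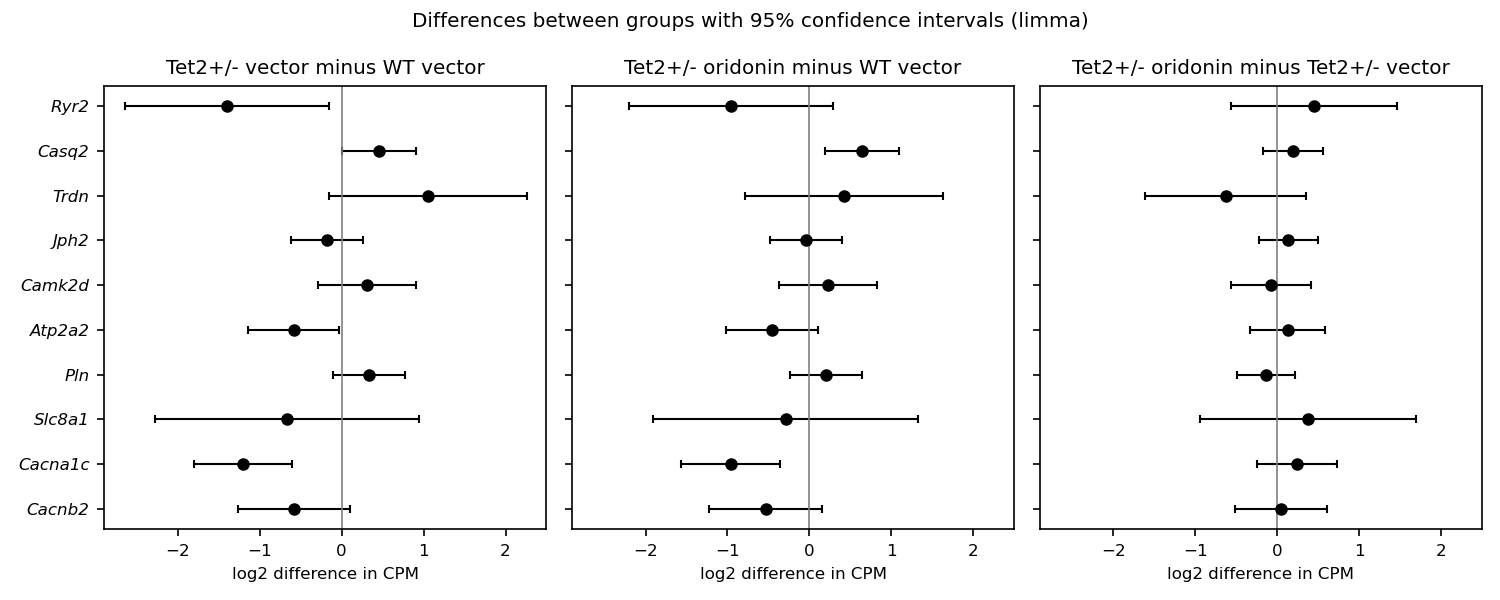
Log2 difference of each of the 10 genes in the 3 comparisons (horizontal axis), as points with 95% intervals from limma. Cacna1c and Ryr2 lie farthest below 0 against WT, and every interval of oridonin against vector spans 0.

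Transcript length moved with several of these results. The 3 members with a longest coding transcript over 10 kb were Ryr2 (16.8 kb), Slc8a1 (18.5 kb) and Cacna1c (13.2 kb), and each was lowest in Tet2+/- vector 2, as was the median of long transcripts. Atp2a2 and Cacnb2, with 4.49 and 3.94 kb, were lowest there too. The other 7 ranged from 2.33 kb for Pln to 5.52 kb for Camk2d. Over all tested genes with a length, the median log2 difference of vector from WT went from 0.23 for transcripts under 1.5 kb to -0.39 for those over 10 kb, and that of oridonin from WT from 0.13 to -0.40, whereas that of oridonin from vector lay between -0.10 and 0.01 in all 5 length classes. With the length trend removed from each library, an adjustment chosen after seeing the data, the difference of vector from WT was -0.93 for Ryr2, -0.79 for Cacna1c, -0.48 for Atp2a2, -0.17 for Slc8a1 and 1.16 for Trdn, and 0 members passed the adjusted threshold by limma, with 7 at an unadjusted p under 0.05, where 14.1% of tested genes passed. On the same scale Ryr2, Atp2a2 and Casq2, 3 of 10, were higher in both oridonin libraries than in both vector libraries, against 16.4% of tested genes. Trdn, 1 of 10, was lower in both, against 15.0%, and Pln and Jph2 overlapped. Pln, Casq2, Camk2d and Trdn were then above WT in all 4 Tet2+/- libraries, 4 of 10 against 25.8%, and Ryr2, Atp2a2, Cacna1c and Cacnb2 below it, 4 of 10 against 28.0%. Ttn, the very long transcript of the sarcomere spring titin, was likewise lowest in vector 2. It was at 2994 CPM in WT, 3380 and 1550 in vector, and 2114 and 3384 in oridonin.

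**Figure D4:**
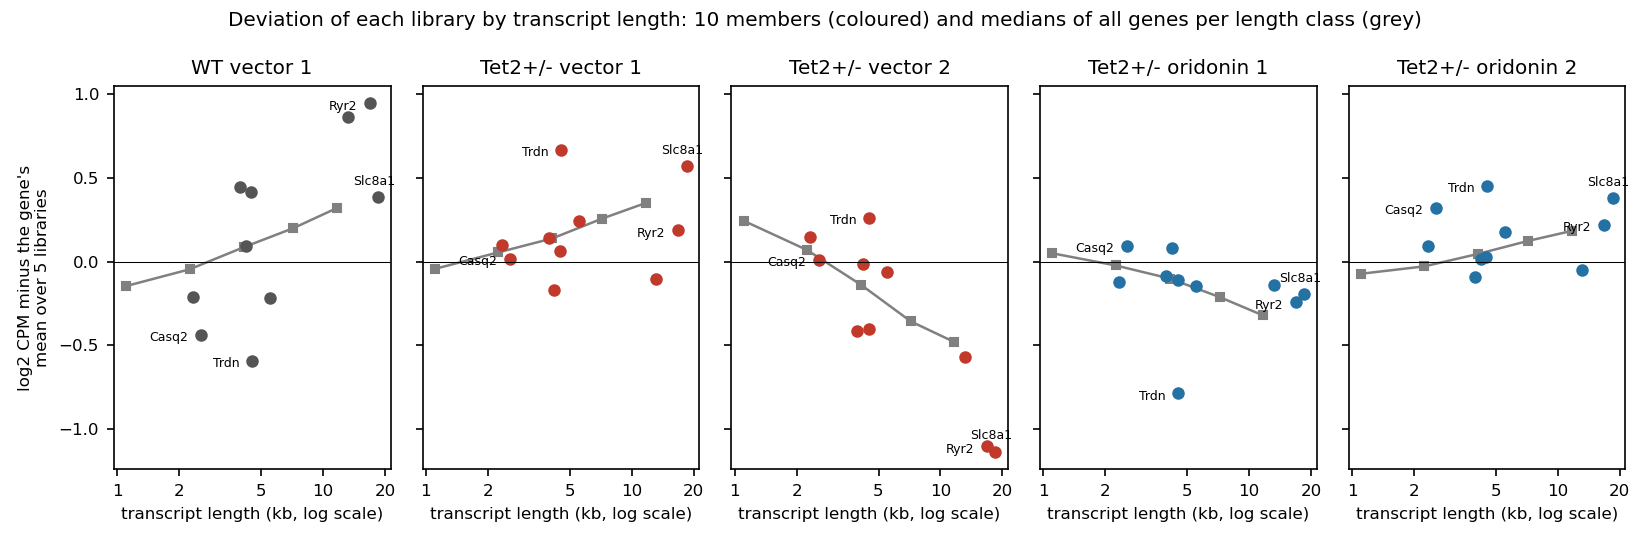
Deviation of log2 CPM from each gene's mean over 5 libraries (vertical axis) against longest coding transcript length (horizontal log axis, kb), 1 panel per library, with the 10 genes as coloured points and the median of all tested genes per length class as grey squares placed at the class's median length. The grey line climbs with length in WT, vector 1 and oridonin 2 and descends in vector 2 and oridonin 1, and Ryr2 and Slc8a1 lie below it in vector 2.

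Members were compared by the shape of their profile, as the root mean square difference between log2 CPM values centred on each gene's mean over the 5 libraries. Atp2a2 and Cacnb2 were closest at 0.0663, followed by Pln and Camk2d at 0.120 and Pln and Casq2 at 0.186, while Ryr2 and Trdn were farthest apart at 0.979. Of all tested genes, the nearest to Ryr2 were Ankrd52 at 0.0967, Kmt2d at 0.114 and Reln at 0.123, each also highest in WT and lowest in vector 2. Their transcripts were 6.62, 19.8 and 11.7 kb long. All of these values rest on the same 5 libraries and share their depth and length trends.

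A wider list of 69 other genes of calcium handling held 61 that were tested. In vector against WT 28 were higher and 33 lower, with a median log2 difference of -0.01, and in oridonin against vector 23 were higher and 38 lower, with a median of -0.06. In oridonin against WT 23 were higher and 38 lower, with a median of -0.11. By limma, 0 passed an adjusted p of 0.05 in any comparison, and 4, 2 and 4 had an unadjusted p under 0.05 in these comparisons, in that order. These are 6.56%, 3.28% and 6.56% of the 61, beside 9.59%, 2.6% and 6.21% of all tested genes, and the 3 medians stand beside 0.00, -0.05 and -0.06 for all tested genes. Among the 7 groups of the list, the 11 other channel subunits and channel regulators had the largest median difference in oridonin against vector, -0.44, with 9 of 11 lower, beside 59.8% of all tested genes. That median was the value of Cacng6 (SE 0.46), which had only 2.02 to 4.67 CPM. Among the lower genes, Cacna1h was at 25.2 CPM in vector 1 and 4.27 in vector 2, against 7.14 and 7.31 in oridonin.

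Cmya5, myospryn, a structural protein of the dyad with a long transcript of 11.85 kb, was at 1132 CPM in WT, 588 and 492 in vector, and 516 and 675 in oridonin, a log2 difference of vector from WT of -1.07 (SE 0.24, adjusted p = 0.359, limma). Rrad, a small GTPase that restrains the L-type channel, was at 74.0 CPM in WT, 124 and 190 in vector, and 154 and 121 in oridonin (log2 difference of vector from WT 1.05, SE 0.31). Tmem38b, a potassium channel of the store, was at 64.3 CPM in WT and 32.4 to 38.9 in the other libraries. These 3 genes were named for their small p against WT. Cacna2d2, an accessory channel subunit, was high in 1 library, at 12.5 CPM in vector 1 and 1.18 to 2.58 in the other 4. Casq1, the skeletal muscle calsequestrin, was at 1.05 CPM in WT, 3.12 and 1.40 in vector, and 4.48 and 8.75 in oridonin (log2 difference of oridonin from vector 1.58, SE 0.54). Rem1, another small GTPase that inhibits the channel, was lower in both oridonin libraries, at 4.61 and 3.95 CPM, than in vector, at 6.60 and 7.27. Ryr3, a second ryanodine receptor, was at 6.15 CPM in vector 1 and 0.58 to 1.57 CPM in the others, and Cacnb3 was at 2.504 to 5.71 CPM.

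Paralogs of the members are given in CPM, which is not corrected for length. Ryr1 reached at most 0.58 CPM, Atp2a1 0.68, Slc8a2 1.77, Slc8a3 0.16, Jph3 0.17 and Jph4 0.29 CPM. Jph1 had 19.5 to 30.8 CPM, Atp2a3 23.2 to 30.3, Cacnb1 4.56 to 7.42 and Cacnb4 0.51 to 1.60 CPM. Of the other kinase isoforms, Camk2a had 37.9 to 51.9 CPM, Camk2b 9.88 to 13.28 and Camk2g 40.6 to 54.9. Cacna1d, the other L-type pore expressed in atria and pacemaker cells, was at 3.83 CPM in vector 1 and between 0.29 and 1.82 in the remaining libraries.

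Vector 1 also carried the atrial signal among calcium genes. Sln, sarcolipin, the atrial inhibitor of the pump, had 1034 counts in vector 1 and 0, 0, 0 and 1 in WT, vector 2 and oridonin 1 and 2. The atrial marker Myl7 had 2739 counts in vector 1 and 0 or 1 in the other libraries, and Bmp10 had 2899 against 0 to 5. Of the 6 atrial markers in the table, 3 passed the filter. The fibroblast markers summed to 2878 CPM in WT, 3093 and 3204 in vector, and 1957 and 1823 in oridonin. That sum was lower in both oridonin libraries, while the cardiomyocyte sum was higher in both. Single cardiomyocyte markers did not all follow their sum. Mybpc3 and Ldb3 were higher in both oridonin libraries than in all others. Myh6 was at 19844 CPM in WT, 20215 and 12264 in vector, and 16975 and 22083 in oridonin. Tnnt2 was at 6407 CPM in WT and lower in both oridonin libraries, at 6331 and 6179. Gsn was the largest part of the fibroblast sum, at 1943 CPM in WT and 1178 and 1005 in oridonin. Col1a1 and Col3a1 lay above WT in both oridonin libraries. Col1a1 was at 38.3 CPM in WT, 99.3 and 102 in vector, and 51.9 and 57.9 in oridonin. The part of these differences in cell markers in the values of the 10 genes was not tested, other than through the values without vector 1 and the centring on cardiomyocyte markers given above.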

How the data were processed

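Per the labels' protocols, poly-A RNA of hearts went into NEBNext Ultra libraries. The submitters' processing notes name the build mm10. The sources used here give no aligner, counter, annotation or strand setting. A single table of log2 values was deposited by the authors, in the form log2 of the count plus 0.5 scaled to CPM. In the Tet2+/- columns each deposited log2 value is 0.75 of its own library plus 0.25 of the other replicate. Undoing this gave whole counts within 0.01 for 99.92% to 99.94% of genes, against at most 10.4% as deposited. The WT column appears blended too, with a second count that is not a column, and was used as deposited as 1 sample. Second counts were sought only close to the library's own count, which limits the shift that could be found. Within this search the blend shifted log2 values by at most 0.0603 for genes with 5 to 99 counts. The members had 1339 or more counts in WT, outside that range, and the shift was not measured for them.

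Limma 3.58.1 in R 4.3.3 (trend, robust) was fitted to the unmixed log2 values of 12734 genes over all 5 libraries with group as the only term, after tests on simulated data. Adjustment was by Benjamini-Hochberg at an FDR of 0.05. The fit had 2 residual degrees of freedom, and the lone WT library was assumed to vary like the Tet2+/- groups. The plan named log2 values, with the replicate mix undone where the values showed it, or another fit if the table held raw counts. Gene positions, transcript lengths and overlaps came from GENCODE M21. Ratios between partners were compared by exact permutation. The members and gene lists were chosen with earlier results of these data known. Named were the 10 members, their paralogs, the listed pathway genes with the 4 smallest p in each comparison and the 3 genes nearest the widest-ranging member. Ttn, Sln, Myl7, Bmp10, Cacna1h, Cacng6, Gsn, Col1a1, Col3a1, Myh6, Tnnt2, Mybpc3 and Ldb3 were named after their values were seen. Alternatives covered the mix, voom, scaling, filters, the replicate block and leaving out each replicate, with 0 columns left without a sample.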

Additional observations from a re-analysis of the deposited data

How the results depend on the processing

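Fitted as deposited, with the replicate mix left in, 6 members and 2312 genes passed the threshold in vector against WT, 0 members and 76 genes in oridonin against vector, and 2 members and 996 genes in oridonin against WT. The mix draws replicates together by construction. Same-numbered libraries of the Tet2+/- groups deviated in opposite directions (correlation across genes -0.296). A fit with the replicate block called 10, 9 and 6 genes in the 3 comparisons, and the crossed pairing, added after seeing the data, called 44 genes in oridonin against vector, with 0 members called in either. With the length trend removed, the member median was -0.13 in vector against WT and 0.13 in oridonin against WT, 0, 2 and 1 genes were called, and oridonin against WT turned to 0.18 for Slc8a1 and 0.067 for Jph2. Without mitochondrial genes in the total the latter was also 0.067 for Jph2. Centring on cardiomyocyte markers turned oridonin against vector to -0.029 for Atp2a2, -0.11 for Cacnb2 and -0.021 for Jph2. Apart from the construction of the mix, the cause of these changes was not tested.

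Leaving out 1 Tet2+/- replicate at a time called 2 to 107 genes in vector against WT, 3 to 32 in oridonin against vector and 0 to 24 in oridonin against WT, with 0 members each time. The member medians ranged from -0.46 to -0.036, from -0.15 to 0.26 and from -0.36 to -0.04. In vector against WT, Slc8a1 ranged from -1.52 to 0.19. In oridonin against vector the ranges were -0.20 to 1.09 for Ryr2, -0.10 to 0.36 for Atp2a2, -0.48 to 1.23 for Slc8a1, -0.23 to 0.33 for Cacnb2 and -0.24 to 0.082 for Camk2d (0.075 without vector 1). In oridonin against WT, Trdn ranged from -0.19, without oridonin 2, to 1.04. The log2 ratios in oridonin against vector ranged from -0.37 to 0.86 for Slc8a1 to Atp2a2, from -0.89 to 0.39 for Casq2 to Ryr2, from -1.03 to 0.41 for Jph2 to Ryr2 and from -1.52 to -0.64 for Trdn to Ryr2. The WT library could not be left out, since it is the only one of its group. The groups held 1, 2 and 2 libraries, and no alternative varied the depth.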
